A study of Mus musculus with 18 samples.

Results

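The genes described here are 39 genes of mitochondrial energy metabolism, chosen by symbol. They encode subunits of the respiratory chain and ATP synthase (15 of complex I, 4 of complex II, 4 of complex III, 6 of complex IV and 1 of complex V), 4 enzymes of the Krebs cycle and 5 regulators of mitochondrial biogenesis. All 39 were measured, on 77 probe sets that the platform annotation assigns to a single gene, among 18193 genes in all. Where a gene had several probe sets (22 of the 39), the probe set with the highest mean signal over all arrays represented the gene.

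The respiratory chain passes electrons from NADH and succinate through complexes I to IV to oxygen and pumps protons across the inner mitochondrial membrane, and ATP synthase (complex V) uses the resulting gradient to make ATP. Heart muscle draws nearly all of its ATP from this route. Transcription of the nuclear genes of the chain is coordinated by the coactivators PGC-1alpha (Ppargc1a) and PGC-1beta (Ppargc1b), which act through factors such as estrogen-related receptor alpha (Esrra) and nuclear respiratory factor 1 (Nrf1) and raise the level of Tfam, the factor that packages and transcribes mitochondrial DNA.

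RNA from the left ventricle of female wild-type C57Bl/6 mice of 3 to 4 months was hybridised to Affymetrix mouse genome expression arrays. The 18 arrays fell into 6 groups of 3: virgin sedentary mice in diestrus (NP/Sed), mice with 7 or 21 days of voluntary wheel running (7EX and 21EX), pregnant mice at day 11 of gestation (MP) or at day 18 to 19 (LP), and mice killed within 12 hours of giving birth (0PP). Each array held equal amounts of RNA pooled from 2 to 3 hearts, so that the spread between arrays is a spread between pools and the p-values do not measure the spread between single animals. The question put to these genes was whether 2 physiological forms of cardiac growth, pregnancy and exercise, altered the transcripts of oxidative metabolism. Because whole ventricle was used, fewer cells of a type and less RNA per cell cannot be told apart.

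All values below are RMA values on the log2 scale, and differences are log2 differences between group means with their standard errors (n = 3 arrays per group). Differences were tested with the two-sided moderated test of limma over all 18 arrays, with Benjamini-Hochberg adjustment over 45037 probe sets, and a gene was called at an adjusted p under 0.05. All 5 comparisons with NP/Sed use the same 3 control arrays. The array medians lay between 4.93 and 5.02. The 10 cardiomyocyte markers averaged between 13.97 and 14.05 on every array. At the representative probe set limma called none of them in any of the 7 comparisons (0 to 3 had an unadjusted p under 0.05, and Cyber-T, a Bayesian t statistic, called 0 to 2). With an intensity trend in limma Ttn was called in 21EX and 0PP. With the mean of a gene's probe sets Tnnt2 and Ttn were called in 21EX and Tnnt2 in 0PP, and without the array NP/Sed-1 Ryr2 was called in LP. The macrophage markers averaged 7.40 to 7.62 on the NP/Sed arrays and 7.59 to 7.97 on the other 15 arrays, with Cd68 called higher in 7EX, 21EX, MP and 0PP. In MP the 3 erythroid markers measured of 8 averaged 5.37 to 6.12, against 4.82 to 4.91 in NP/Sed, and the 4 white adipocyte markers measured of 7 averaged 4.77 to 5.48, against 4.14 to 4.51. Their part in the results below was not tested.

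Some arrays stood apart from their group. The array NP/Sed-1 stood 1.40 above the mean of the other NP/Sed arrays for Ppargc1a, and it was high at all 5 probe sets of this gene, by 0.85 to 1.44. Ppargc1a was the gene furthest above in that array. Of 18193 genes, 6 differed there by 1 or more, the other 5 being Ppbp and Erdr1 (higher) and Pcp4, 1700012D14Rik and Car3 (lower), a set named after its values were seen. The next member, Idh3a, stood 0.43 above. Results for Ppargc1a are therefore given with and without this array. The most genes stood 1 or more apart on LP-3 (69 above and 4 below), LP-2 (3 above and 27 below) and 21EX-1 (25 above and 0 below), none of them a member, and the member furthest apart there was Ppargc1b on LP-2 (0.36) and LP-3 (-0.35) and Nrf1 on 21EX-1 (-0.33). LP-1 (15), 0PP-1 (12), MP-1 (11), MP-2 (10), 0PP-2 (10) and MP-3 (8) also had more such genes than NP/Sed-1, again none a member. NP/Sed-1 was thus singled out by Ppargc1a and not by its number of genes apart.

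Ppargc1a was lower in the exercised hearts and, apart from NP/Sed-1, highest in mid-pregnancy. At its brightest probe set (1460336_at) the NP/Sed arrays read 11.89, 10.50 and 10.48, the 7EX arrays 10.04, 10.24 and 10.14, and the 21EX arrays 10.06, 9.73 and 10.01. All 6 exercise arrays lay below all 3 sedentary arrays, and they would do so without NP/Sed-1 as well. The MP arrays read 10.91, 10.73 and 11.04, the LP arrays 10.41, 10.57 and 10.60, and the 0PP arrays 10.50, 10.27 and 10.32. The 3 MP arrays stood above every other array except NP/Sed-1, and this held at each of the 5 probe sets. The LP and 0PP arrays lay around the lower pair of sedentary arrays.

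After 21 days of running Ppargc1a fell by 1.03 ± 0.24, a 2.04-fold lower level (adjusted p = 0.0313). This was the only member called in that comparison, in which 2.67% of all genes were called, 2.25% higher and 0.418% lower. At an unadjusted p under 0.05 there were 3 members, beside 20.2% of all genes. Without NP/Sed-1 the fall was 0.56 ± 0.11, with adjusted p = 0.0289, and without 21EX-1 it was 1.09 (adjusted p = 0.0490). The call was lost without the array 21EX-2 (adjusted p = 0.109) or 21EX-3 (adjusted p = 0.0713). The other probe sets differed by -0.54, -0.82, -0.69 and -0.61, and of these 1434100_x_at was called (adjusted p = 0.0324). Without NP/Sed-1 they differed by -0.12, -0.34, -0.41 and -0.30, and none of these was called (adjusted p = 0.592, 0.0534, 0.0632 and 0.154). After 7 days the difference at 1460336_at was -0.82 ± 0.24 (adjusted p = 0.122), and -0.35 ± 0.11 without NP/Sed-1 (adjusted p = 0.164).

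In pregnancy the comparison of Ppargc1a with NP/Sed turned on that array. In MP the difference was -0.07 ± 0.24 (adjusted p = 0.945) with all arrays and 0.40 ± 0.11 without NP/Sed-1 (adjusted p = 0.128). At the other 4 probe sets, the MP difference without NP/Sed-1 was 0.80 (1456395_at, adjusted p = 0.00236), 0.48 (1437751_at, adjusted p = 0.0208), 0.54 (1434100_x_at, adjusted p = 0.0323) and 0.48 (1434099_at, adjusted p = 0.0550). NP/Sed-1 was singled out by its own high Ppargc1a values. Leaving it out therefore raises the MP difference and narrows the standard error by construction. The calls in that fit are no independent support for a rise in MP. There 0.808% of all genes were called in MP, against 1.15% with all arrays. With NP/Sed-1 none of the 5 probe sets was called in MP, and their differences ran from -0.07 to 0.38. For LP the difference was -0.43 ± 0.24 (adjusted p = 0.460) and for 0PP -0.59 ± 0.24 (adjusted p = 0.197). They were 0.03 ± 0.11 and -0.13 ± 0.11 without NP/Sed-1 (adjusted p = 0.928 and 0.579).

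The contrast of the pregnancy stages (mean of MP, LP and 0PP) with exercise (mean of 7EX and 21EX) does not use the sedentary means. There Ppargc1a was 0.56 ± 0.15 higher in pregnancy at 1460336_at, a 1.47-fold difference that was not called (adjusted p = 0.0584). The 9 pregnancy arrays read 10.27 to 11.04 and the 6 exercise arrays 9.73 to 10.24, so that the groups did not overlap at this probe set. Nor did they at 1437751_at and 1434099_at. They overlapped at 1456395_at (exercise up to 9.61, pregnancy from 9.59) and 1434100_x_at (exercise up to 8.28, pregnancy from 8.27). For this contrast the share of all genes without overlap was not counted. The difference was called at 1434100_x_at (0.50 ± 0.11, adjusted p = 0.0117) and at 1434099_at (0.45 ± 0.11, adjusted p = 0.0326). The standard errors use the spread within all groups, NP/Sed included. Without NP/Sed-1, a fit chosen after the data were seen, the standard error at 1460336_at was 0.07 and the difference was called (adjusted p = 9.64e-05). The other probe sets were also called in that fit (adjusted p = 6.66e-05 to 0.000748), where 4.49% of all genes were called. With only the groups compared in the fit the difference at 1460336_at was called (adjusted p = 0.000203), as it was with the difference between 3' and 5' signal as a covariate, where it was 1.03 (adjusted p = 0.0237). That signal difference averaged 0.613 in NP/Sed, 0.514 in 7EX, 0.587 in 21EX, 0.685 in MP, 0.604 for LP and 0.659 for 0PP on the log2 scale. Its SD within a group was 0.110 in NP/Sed and 0.004 to 0.023 in the others. The slope of this covariate therefore rests largely on the NP/Sed arrays, of which NP/Sed-1 had the lowest signal difference (0.519). The fit with the covariate thus brings NP/Sed-1 into the contrast and cannot decide the part of the signal difference, which was not tested otherwise. In this contrast 4.08% of all genes were called, 1.73% higher and 2.36% lower in pregnancy.

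**Figure D1:**
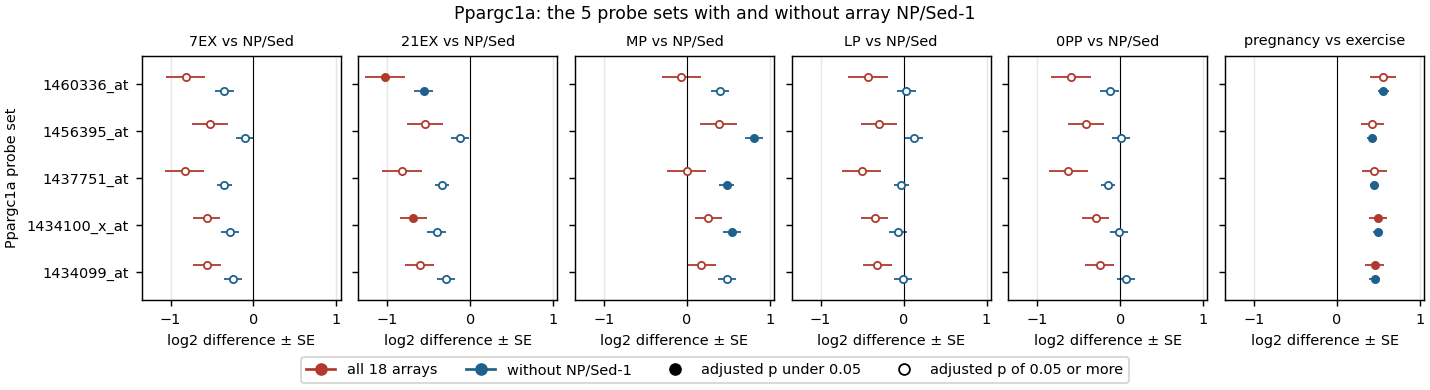
Log2 difference ± SE of the 5 Ppargc1a probe sets in each comparison, with all 18 arrays (red) and without NP/Sed-1 (blue); filled points have an adjusted p under 0.05. Leaving the array out brings the exercise differences nearer to 0, moves the MP differences to between 0.40 and 0.80, and leaves the pregnancy against exercise differences, which do not use that array's group, at 0.42 to 0.56.

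Ppargc1b, the second coactivator, had a different course. Its arrays read 9.67, 9.81 and 9.87 in NP/Sed, 9.58, 9.47 and 9.48 in MP, 9.36, 9.60 and 9.12 in LP, and 9.53, 9.79 and 9.67 in 0PP. The MP and LP arrays lay below all sedentary arrays, and the 0PP arrays overlapped with them. In LP it fell by 0.42 ± 0.10 (adjusted p = 0.0448), the only member called in that comparison, where 2.36% of all genes were called, 1.8% higher and 0.555% lower. At an unadjusted p under 0.05 there were 4 members, beside 15.4% of all genes. This call was lost without NP/Sed-2 (adjusted p = 0.134), NP/Sed-3 (0.199), LP-1 (0.140) or LP-3 (0.200), and it had an adjusted p of 0.0335 without NP/Sed-1 and 0.00941 without LP-2. The differences were -0.27 ± 0.10 in MP (adjusted p = 0.216), -0.12 ± 0.10 in 0PP (adjusted p = 0.596) and -0.19 ± 0.10 in both 7EX and 21EX (adjusted p = 0.451 and 0.349).

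Tfam read 8.74, 8.50 and 8.62 in NP/Sed, 8.88, 8.87 and 9.0 in 7EX, and 8.89, 8.81 and 8.73 in 21EX. It read 8.66, 8.62 and 8.64 in MP, 8.84, 8.75 and 8.74 in LP, and 8.78, 9.02 and 8.88 in 0PP. The 7EX, LP and 0PP arrays lay above all sedentary arrays, while the MP arrays lay among them. The differences were 0.30 ± 0.08 in 7EX (adjusted p = 0.0913), 0.27 ± 0.08 in 0PP (adjusted p = 0.0773), 0.19 ± 0.08 in 21EX (adjusted p = 0.193), 0.16 ± 0.08 for LP (adjusted p = 0.406) and 0.02 ± 0.08 in MP (adjusted p = 0.951), and none was called. Without NP/Sed-1 the 0PP difference was 0.33 ± 0.08 and was called (adjusted p = 0.0405). Its other probe set, with a mean of 5.38, differed by -0.01 to 0.19 from NP/Sed.

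Esrra, an orphan nuclear receptor that binds PGC-1 coactivators, differed from NP/Sed by -0.06 to 0.03, with group means of 9.55 to 9.64 and an SD of up to 0.17. At its brightest probe set Nrf1, a transcription factor of nuclear-encoded respiratory genes, had group means of 5.40 to 5.63, little above the array medians. Its differences there of -0.08 to 0.15 had a standard error of 0.12. At the representative probe sets the 95% intervals ran from -0.24 to 0.21 for Esrra and from -0.32 to 0.39 for Nrf1. A dimmer Nrf1 probe set fell by 0.29 ± 0.08 in 0PP (adjusted p = 0.0665). Without NP/Sed-1 it fell by 0.34 and was called (adjusted p = 0.0378, with 4.37% of all genes called). Another rose by 0.18 ± 0.08 in 0PP (adjusted p = 0.261). It differed by -0.23 in 7EX (adjusted p = 0.226) and by 0.31 in 0PP against LP (adjusted p = 0.106). The last differed by 0.06 to 0.19 from NP/Sed, without a call.

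**Figure D2:**
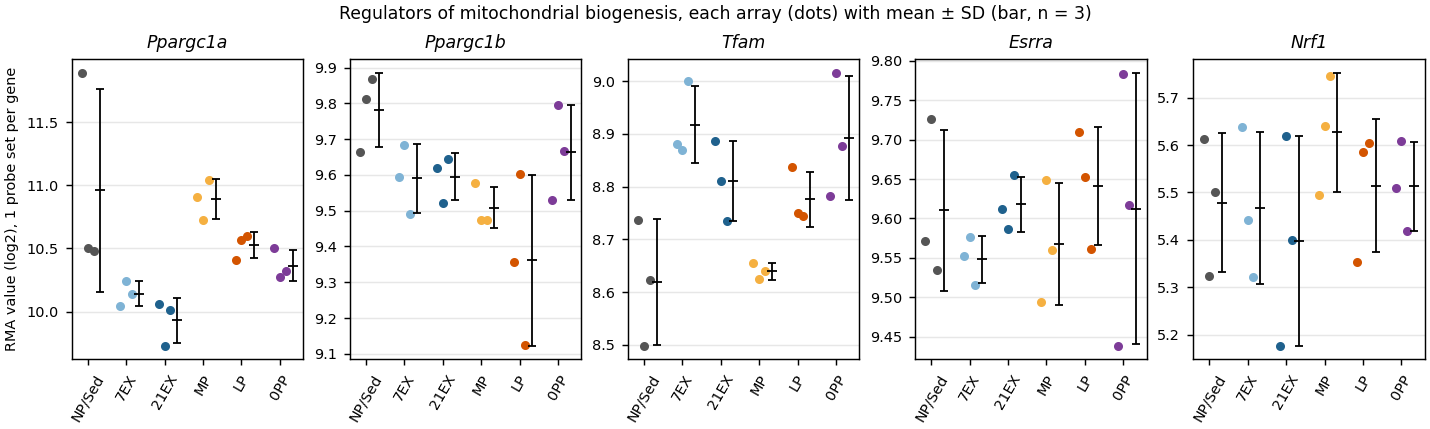
RMA value (log2) of the 5 regulators on each of the 18 arrays (dots) with the group mean ± SD (bars, n = 3), on separate axes. NP/Sed-1 stands apart for Ppargc1a at 11.89, the exercise arrays are lowest for Ppargc1a, and LP is lowest for Ppargc1b.

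Promoter sequence was searched for the sites of the factors named above. RefSeq windows (build GRCm38.p6, 250 bases before to 50 after the start site) were at hand for 29 of the 39 members. The estrogen-related receptor element TCAAGGTCA, searched on both strands, occurred in 1 member (Sdhd) and in 0.466% of all 27025 genes with a window, and its core AAGGTCA in 2 members (Ogdh and Sdhd) and 5.38% of genes. The palindromic NRF-1 site, also searched on both strands, occurred in 5 members (Ndufa5, Ndufa8, Sdha, Sdhd and Uqcrc1) and 5.19% of genes. The GABP element CCGGAAGT occurred in 2 members (Ndufs3 and Tfam) and 4.31% of genes, and the E-box CACGTG in 2 (Ndufv1 and Ogdh) and 8.09%. The Ppargc1a window held none of these. It held a CRE half-site, TGACGT on the other strand, found in the windows of 7 members, Ppargc1a included, and 8.37% of genes, a motif chosen after the sequence was seen. Below are the 250 bases before the start site, all on the minus strand, with the CRE half-site (Ppargc1a, chr5:51567726-51567975), the GABP element (Tfam, chr10:71238045-71238294) and the NRF-1 element (Sdhd, chr9:50603850-50604099) in capitals. Sdhd is shown as the only member with both an NRF-1 and an estrogen-related receptor element, the latter lying after the start site and not printed.
Ppargc1a: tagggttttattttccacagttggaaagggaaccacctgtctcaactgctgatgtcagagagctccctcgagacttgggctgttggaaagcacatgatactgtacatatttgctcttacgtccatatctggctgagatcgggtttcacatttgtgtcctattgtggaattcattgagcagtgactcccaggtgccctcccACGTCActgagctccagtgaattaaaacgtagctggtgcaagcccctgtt
Tfam: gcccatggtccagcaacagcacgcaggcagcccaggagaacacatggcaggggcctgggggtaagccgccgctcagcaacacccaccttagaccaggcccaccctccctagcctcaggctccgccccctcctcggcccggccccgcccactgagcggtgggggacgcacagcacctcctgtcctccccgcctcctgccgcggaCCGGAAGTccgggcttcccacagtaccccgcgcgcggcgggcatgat
Sdhd: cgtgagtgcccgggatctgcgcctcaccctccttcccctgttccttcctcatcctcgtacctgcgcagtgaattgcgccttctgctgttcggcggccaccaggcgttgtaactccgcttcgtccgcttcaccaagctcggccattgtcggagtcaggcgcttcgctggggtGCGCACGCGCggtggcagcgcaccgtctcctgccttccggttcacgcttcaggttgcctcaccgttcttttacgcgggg

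None of the 34 subunits and Krebs cycle enzymes was called in any of the 7 comparisons, at any of their 63 probe sets. The lowest adjusted p among those probe sets was 0.102, in 21EX. Of all probe sets on the array, 0.659% were called in 7EX, 2.75% in 21EX, 1.16% in MP, 1.67% for LP, 1.98% for 0PP, 0.884% for 0PP against LP and 2.96% for pregnancy against exercise. At the representative probe sets the differences from NP/Sed ran from -0.15 to 0.16 in 7EX, -0.09 to 0.15 in 21EX, -0.16 to 0.09 in MP, -0.15 to 0.17 in LP and -0.13 to 0.11 in 0PP. Their median was 0.00 in 7EX, -0.00 in 21EX, -0.02 in MP, 0.02 for LP and -0.01 for 0PP, while all genes had medians of 0.03, 0.04, 0.03, 0.01 and 0.01. The 95% interval of a single subunit had a median half-width of 0.14 at these probe sets. Over all 34 genes and the 5 comparisons with NP/Sed the interval bounds there stayed between -0.33 and 0.35. Over the 58 probe sets of these genes with a mean of 7 or more, differences ran wider, from -0.27 (Cs in MP) to 0.27 (Ogdh in 21EX). Uqcrc2 reached 0.24 in LP.

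Counted over all 39 members, limma called 0 in 7EX, MP and 0PP, where 0.797%, 1.15% and 2.7% of all genes were called (higher 0.693%, 0.956% and 2.4%, lower 0.104%, 0.198% and 0.302%). At an unadjusted p under 0.05 the counts were 4, 1 and 2 of 39, beside 13.4%, 13.6% and 19.9% of all genes. Cyber-T called 1 member in 7EX (Ppargc1a) and 0 in MP and 0PP. In 0PP against LP limma and Cyber-T each called 0, with 1 of 39 at an unadjusted p under 0.05 (12.1% of all genes) and 1.33% of all genes called (0.868% higher and 0.462% lower). In pregnancy against exercise limma called 0 and Cyber-T 1, again Ppargc1a, with 1 of 39 at an unadjusted p under 0.05 (16.4% of all genes). 
At the representative probe set some members had arrays that did not overlap between groups, a pattern that many genes on the array showed. In 7EX there were 6 higher (Ndufb5, Ndufv2, Sdhb, Sdhd, Uqcrc2 and Tfam) and 2 lower (Ndufv1 and Ppargc1a) of 39, where 12.8% of all genes were higher, 5.56% lower and 18.4% either. In 21EX there were 3 higher (Ndufv2, Sdhc and Sdhd) and 4 lower (Ndufv1, Mdh2, Ppargc1a and Ppargc1b), beside 18.7%, 5.98% and 24.7%. In MP 1 was higher (Ndufv2) and 5 were lower (Ndufa4, Ndufv1, Sdha, Mdh2 and Ppargc1b), beside 12.6%, 5.57% and 18.1%. LP had 8 higher (Ndufa9, Ndufb5, Ndufb9, Ndufv2, Sdhb, Uqcrc1, Uqcrc2 and Tfam) and 1 lower (Ppargc1b), beside 11%, 7.68% and 18.7%. 0PP had 2 higher (Ndufb9 and Tfam) and 1 lower (Ndufa1), beside 15.2%, 8.35% and 23.5%. Between 0PP and LP, 0 were higher and 5 lower (Ndufs1, Sdha, Atp5b, Idh3a and Ogdh), beside 10.5%, 8.06% and 18.6%. By the F test over the 6 groups 7.5% of all genes were called.

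These transcripts were among the brightest on the array. The 34 subunits and enzymes had mean log2 values of 11.50 to 14.02, all above the 98th percentile of genes, where the highest value of the whole table was 14.86. Their median SD within a group was 0.055, against 0.116 over all genes. Whether such signals were compressed near the top of the range was not tested.

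**Figure D3:**
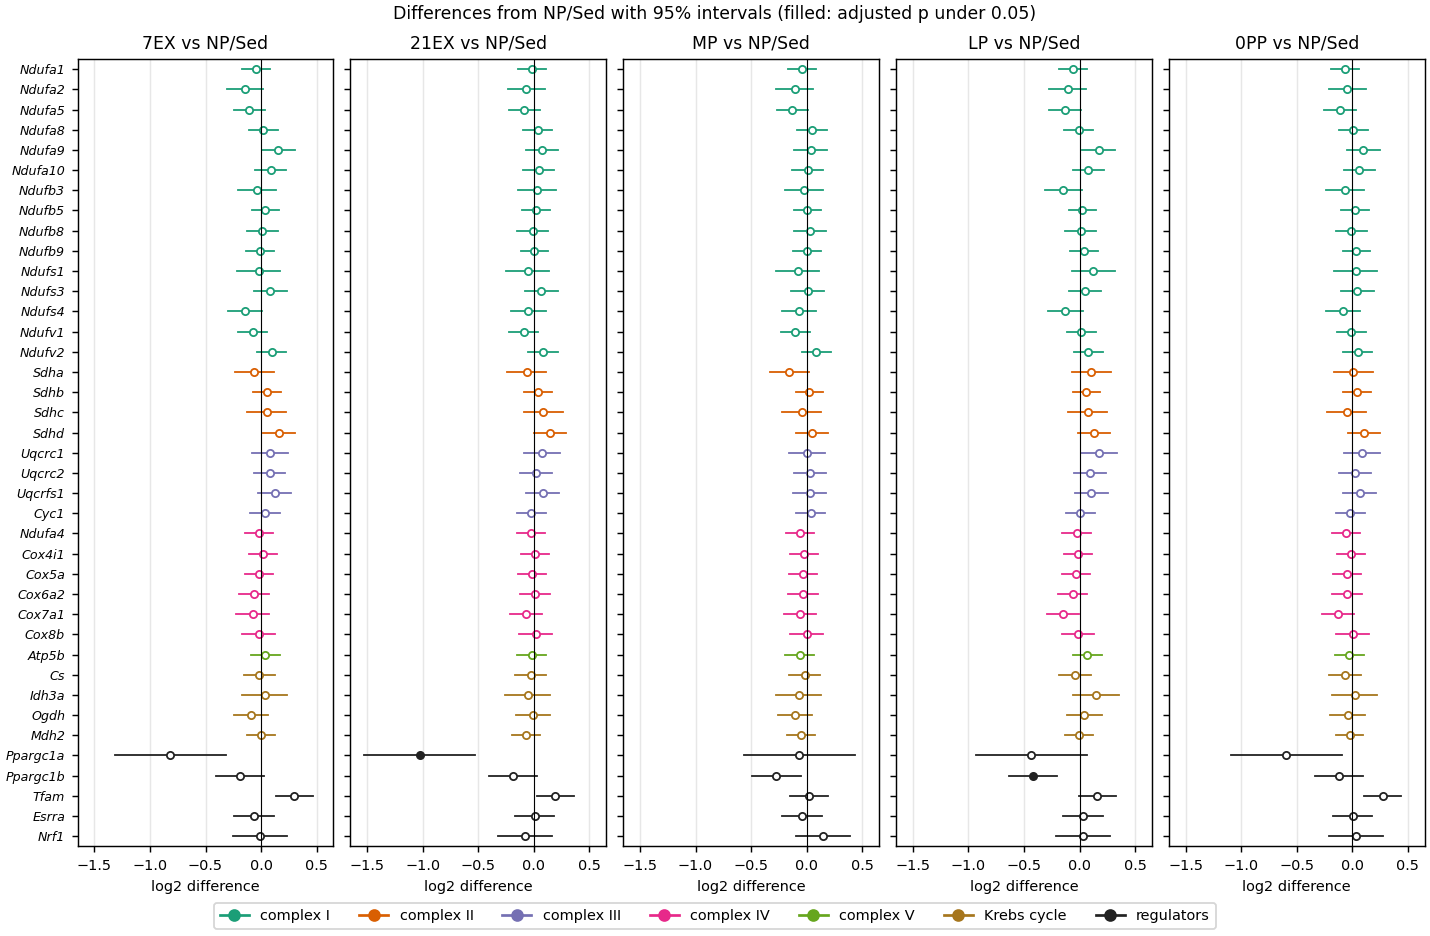
Log2 difference from NP/Sed with its 95% interval for each of the 39 genes in the 5 comparisons, coloured by complex; filled points have an adjusted p under 0.05. At their representative probe sets the 34 subunits and enzymes lie between -0.16 and 0.17, and the 2 filled points are Ppargc1a in 21EX and Ppargc1b in LP.

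Complex I, the NADH dehydrogenase that feeds electrons into the chain, was represented by 15 subunits, with medians of -0.01 to 0.02 in the 5 comparisons. The accessory subunits Ndufa2, Ndufa10, Ndufb3 and Ndufb8 lay, like the rest, between -0.15 and 0.17. The subunit furthest from NP/Sed was Ndufa9, an accessory subunit, in LP (0.17 ± 0.07, adjusted p = 0.268). It read 12.75, 12.57 and 12.62 in NP/Sed and 12.89, 12.80 and 12.77 in LP, and the groups did not overlap. Ndufs4, an accessory subunit of the matrix arm, read 11.60, 11.82 and 11.88 in NP/Sed and 11.63, 11.63 and 11.59 in 7EX (-0.15 ± 0.07, adjusted p = 0.410), with NP/Sed-1 among the 7EX arrays. Ndufv2, a core iron-sulfur subunit, was above all sedentary arrays in 7EX, 21EX, MP and LP by only 0.08 to 0.10 (adjusted p = 0.518 to 0.636). This held at its representative probe set alone, and at its dimmer probe sets each of these groups overlapped with the sedentary arrays.

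Complex II, succinate dehydrogenase, links the Krebs cycle to the chain. Its membrane anchor Sdhd read 12.13, 11.97 and 11.98 in NP/Sed, 12.21, 12.18 and 12.17 in 7EX and 12.19, 12.20 and 12.13 in 21EX. Both exercise groups lay above the sedentary arrays, by 0.16 ± 0.07 and 0.15 ± 0.07, and neither difference was called (adjusted p = 0.309 and 0.251). At its dimmer probe set both overlapped with the sedentary arrays. There NP/Sed read 10.29, 10.43 and 10.58, 7EX 10.55, 10.43 and 10.39, and 21EX 10.37, 10.35 and 10.44. The flavoprotein Sdha differed by -0.16 ± 0.08 in MP (adjusted p = 0.431) and by 0.11 ± 0.08 in LP (adjusted p = 0.634). Here too NP/Sed-1 (12.90) stood above the other sedentary arrays (12.59 and 12.58).

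Complex III, which passes electrons from ubiquinol to cytochrome c, had 4 members with medians of 0.03 to 0.10. The iron-sulfur protein Uqcrfs1 and cytochrome c1 (Cyc1) lay within the range of this complex, -0.02 to 0.17. Its core protein Uqcrc1 read 12.85, 12.63 and 12.80 in NP/Sed and 12.97, 12.90 and 12.94 in LP, a difference of 0.17 ± 0.08 (adjusted p = 0.326). The 6 members of complex IV, cytochrome c oxidase, had medians of -0.05 to 0.00, and Cox5a and Cox8b lay within its range of -0.15 to 0.02. The heart and muscle isoform Cox7a1 had the largest differences of this complex, -0.15 ± 0.07 at LP and -0.13 ± 0.07 at 0PP (adjusted p = 0.366 and 0.345). Cox4i1 and Cox6a2, the brightest members, had mean values of 14.01 and 14.02.

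Atp5b, the catalytic beta subunit of ATP synthase, differed from NP/Sed by -0.06 to 0.07, with a standard error of 0.06. Of the Krebs cycle enzymes, citrate synthase (Cs), commonly used as a measure of mitochondrial content, read 13.17, 13.26 and 13.24 in NP/Sed, 13.23, 13.23 and 13.17 in 7EX, and 13.15, 13.25 and 13.18 in 21EX. It read 13.14, 13.22 and 13.26 in MP, 13.23, 13.22 and 13.10 in LP, and 13.09, 13.18 and 13.20 in 0PP. At this probe set all groups overlapped with the sedentary arrays. Its differences were -0.07 to -0.02 and their 95% intervals lay between -0.21 and 0.13. At a dimmer Cs probe set the MP arrays (10.90, 10.80 and 10.85) lay below the sedentary arrays (11.45, 10.91 and 10.99), a difference of -0.27 ± 0.11 that was not called (adjusted p = 0.261). At the representative probe sets Idh3a, a subunit of isocitrate dehydrogenase, Ogdh and Mdh2 differed by -0.11 to 0.15 and were not called. At dimmer probe sets Ogdh differed by 0.27 in 21EX and Idh3a by 0.27 in MP and 0.19 in 7EX, also without a call.

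Other nuclear genes of the chain, from lists that leave out the members, were counted in the same way. Of 48 further subunits (18 of complex I, 15 of complexes III and IV with cytochrome c, and 15 of ATP synthase), limma called 0 in each of the 7 comparisons, and 0 or 1 had an unadjusted p under 0.05. Cyber-T called 0 in the comparisons with NP/Sed and in 0PP against LP, and in pregnancy against exercise 1 that was lower in pregnancy, Atpif1, the inhibitory factor of ATP synthase. The list medians lay between -0.03 and 0.02. Of the 13 transcripts of mitochondrial DNA listed, only ND5 had a probe set of its own, and it differed from NP/Sed by -0.12 to -0.04 with a mean signal of 14.5.

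Assembly factors, which build the complexes but are not part of them, and proteins of the mitochondrial ribosome, which translates the subunits that mitochondrial DNA encodes, held more calls. Markers of other cells moved in the same comparisons. The 8 fibroblast markers averaged 9.74 to 9.98 on the NP/Sed arrays, 10.03 to 10.09 in 21EX, 9.62 to 9.75 in LP and 9.96 to 10.13 in 0PP, with Tcf21 called higher in 21EX and 0PP, Postn higher in 0PP and Col3a1 lower in LP. The 7 endothelial markers averaged 9.27 to 9.52 in NP/Sed, 9.47 to 9.62 in 7EX, 9.58 to 9.65 in 21EX, 9.39 to 9.59 in LP and 9.55 to 9.60 in 0PP, with Emcn called higher in 7EX and 0PP, Vwf in LP and 0PP and Fabp4 in LP. The macrophage markers, 7.40 to 7.62 in NP/Sed, averaged 7.75 to 7.92 in 7EX, 7.80 to 7.97 in 21EX and 7.75 to 7.87 in 0PP. Their part in the counts that follow was not tested. Of 26 assembly factors, 5 were higher in 21EX (2.25% of all genes were), 3 in 0PP (2.40%), 2 in 7EX (0.693%), 1 in LP (1.80%) and 0 in MP, and none was lower. Their median difference was 0.15 in 21EX and 0.13 in 0PP. Ndufaf5, an assembly factor of complex I, read 7.90, 7.89 and 7.98 in NP/Sed and 8.28, 8.22 and 8.23 in 21EX, a rise of 0.32 ± 0.08 (adjusted p = 0.0360). Nubpl, an iron-sulfur protein needed for complex I assembly, rose by 0.36 ± 0.08 in 21EX, 0.34 ± 0.08 at LP and 0.38 ± 0.08 at 0PP (adjusted p = 0.0265, 0.0349 and 0.0237). Ndufaf1 rose by 0.40 ± 0.09 in 7EX and 0.35 ± 0.09 in 21EX (adjusted p = 0.0384 and 0.0359), and the ATP synthase assembly factor Atpaf2 by 0.37 ± 0.08 in 21EX (adjusted p = 0.0222). With 1 array left out, 0 to 2 factors were called in 21EX (0 without 21EX-2 or 21EX-3) and 0 to 2 for LP (0 without NP/Sed-3, LP-1 or LP-3). In 7EX 1 was called without NP/Sed-1, where 0.616% of all genes were called, and 0 without each other array. For 0PP the range was 0 to 4, with 0 without NP/Sed-3, 0PP-2 or 0PP-3 and 1 without NP/Sed-2. With only the groups compared in the fit, each assembly factor call counted above was lost, and the share of all genes called there was not counted.

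Of 28 proteins of the mitochondrial ribosome, 5 were higher in 0PP, 2 in 21EX, 2 in LP and 1 in MP (0.956% of all genes), and none was lower. In 21EX 27 of the 28 lay above 0, with a median of 0.16 beside 0.04 over all genes. Mrps18a read between 9.99 and 10.06 in NP/Sed and between 10.26 and 10.50 on all 15 other arrays. It rose by 0.33 ± 0.06 in 21EX, 0.33 ± 0.06 in MP, 0.29 ± 0.06 at LP and 0.42 ± 0.06 at 0PP (adjusted p = 0.0174, 0.0179, 0.0247 and 0.00497), and by 0.28 ± 0.06 in 7EX without a call (adjusted p = 0.0523). Mrpl11 rose by 0.34 ± 0.07 in 21EX and 0.30 ± 0.07 in 0PP (adjusted p = 0.0206 and 0.0362). With 1 array left out the counts were 0 to 3 in 21EX (0 without 21EX-2 or 21EX-3), 0 to 1 in MP (0 without NP/Sed-3 or MP-3) and 0 to 3 for LP (0 without NP/Sed-3, LP-1 or LP-3). For 0PP the count was 4 without NP/Sed-1 (4.37% of all genes called in either direction), 2 without 0PP-1 and 1 without each other array. With only the groups compared in the fit, each ribosomal call counted above was lost. With the mean of a gene's probe sets, Mrpl1, Mrpl11, Mrpl15 and Mrps2 lost their calls in 0PP and Mrpl11 in 21EX. That setting gained Mrpl16 in 7EX and 21EX and Mrps18a in 7EX. The share of all genes called under these settings was not counted.

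**Figure D4:**
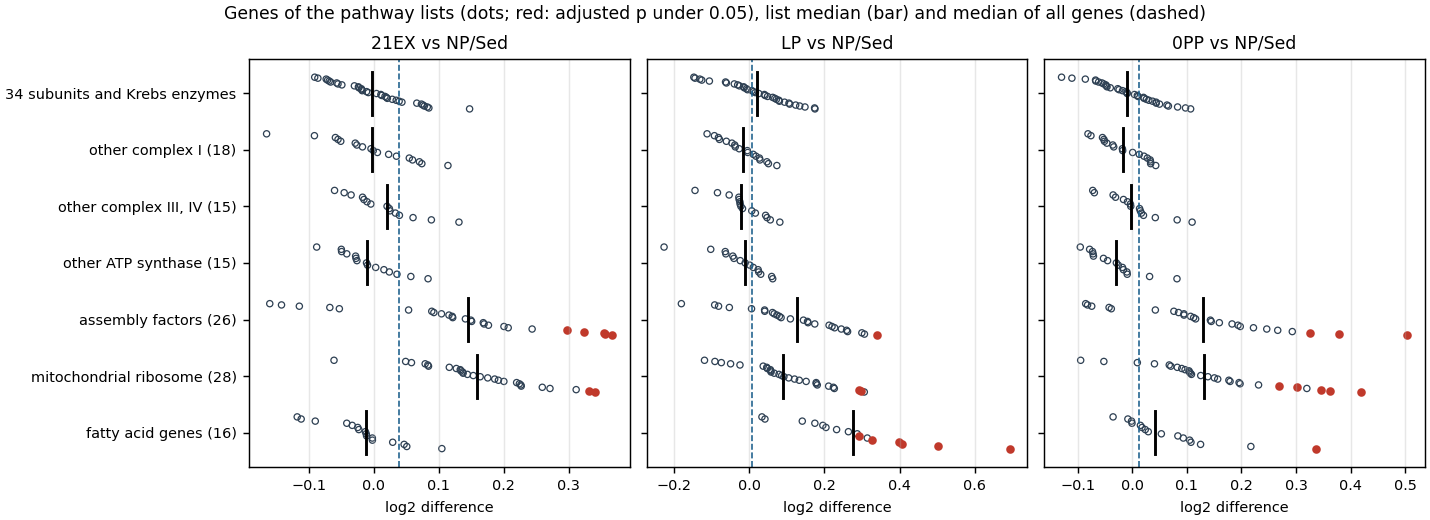
Log2 difference from NP/Sed of each gene (dots; red, adjusted p under 0.05) of the 34 subunits and Krebs enzymes and of 6 pathway lists in 21EX, LP and 0PP, with list medians (bars) and the median of all genes (dashed). The subunit lists centre near 0 in all 3 panels, assembly factors and ribosomal proteins lie to the right, and the fatty acid genes do so in LP.

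Genes of fatty acid oxidation, a list of targets of PPAR and PGC-1alpha, had most of their calls against NP/Sed in late pregnancy. Of 16 genes measured, 6 were higher in LP (1.80% of all genes were) and none lower, with a median of 0.28, and in 0PP against LP 3 were lower (0.462% of all genes). Decr1, a mitochondrial dienoyl-CoA reductase, read 11.60, 11.62 and 11.71 in NP/Sed, 12.11, 12.10 and 12.23 in LP and 11.96, 11.93 and 12.06 in 0PP. It rose by 0.50 ± 0.07 in LP (adjusted p = 0.00146) and 0.34 ± 0.07 in 0PP (adjusted p = 0.0240). Acot2, a mitochondrial acyl-CoA thioesterase, rose by 0.69 ± 0.10 in LP (adjusted p = 0.00160) and was 0.69 ± 0.10 lower in 0PP than in LP (adjusted p = 0.00213). The trifunctional protein subunit Hadha rose by 0.33 ± 0.07 in LP (adjusted p = 0.0209). With 1 array left out, 3 to 9 of the 16 were called in LP, 6 without LP-2 and 3 without NP/Sed-2 or LP-3. The 9 were called without NP/Sed-1, where 3.34% of all genes were called in either direction (2.36% with all arrays). Over the other alternatives 2 (only the groups compared) to 12 (intensity trend) were called. In 0PP against LP 3 were lower without NP/Sed-1 (1.49% of all genes called in either direction) or 0PP-3 and 1 without each other array. The call of Decr1 in 0PP was lost without NP/Sed-2, NP/Sed-3, 0PP-2 or 0PP-3.

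Among 26 further regulators of mitochondrial biogenesis, the nuclear receptor Ppara fell by 0.78 ± 0.15 in 21EX (adjusted p = 0.0182). It read 9.74, 9.56 and 9.24 in NP/Sed and 8.94, 8.35 and 8.90 in 21EX, so that the groups did not overlap, and as for Ppargc1a NP/Sed-1 was the highest array. The deacetylase Sirt1 rose by 0.37 ± 0.08 in LP (adjusted p = 0.0215), where all 3 arrays (7.61, 7.31 and 7.45) lay above the sedentary range of 7.07 to 7.11. Pprc1, the third coactivator of the PGC-1 family, rose by 0.49 ± 0.11 in 0PP (adjusted p = 0.0328). The call of Ppara was lost without NP/Sed-1, NP/Sed-2 or 21EX-2, that of Sirt1 without NP/Sed-2, NP/Sed-3, LP-1 or LP-3, and that of Pprc1 without NP/Sed-2, NP/Sed-3, 0PP-2 or 0PP-3.

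Of 20 other Krebs cycle and pyruvate enzymes limma called 0 in each comparison with NP/Sed, with 2 to 4 at an unadjusted p under 0.05 and up to 1 by Cyber-T. The mitophagy receptor Bnip3 rose by 0.66 ± 0.11 at LP and 0.71 ± 0.11 at 0PP (adjusted p = 0.00393 and 0.00513). Pdk4, which inhibits pyruvate dehydrogenase, was 1.44 ± 0.30 lower in 0PP than in LP (adjusted p = 0.0259), a call lost without LP-1, LP-3, 0PP-1 or 0PP-2, with only the groups compared and with the covariate. The carrier Ucp3 was 1.34 ± 0.20 lower in 0PP than in LP (adjusted p = 0.00263). The fibroblast markers Col1a2, Col3a1 and Tcf21 were higher in 0PP than in LP, and their part in these differences was not tested.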

How the data were processed

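The authors deposited log2 expression values, obtained with the RMA algorithm at default options on all 18 arrays together (background correction, quantile normalization and summary per probe set), and these were used as they stand. Array intensities have no read depth, and the 3 arrays per group limit the precision. Of 45101 probe sets, 64 controls were left out and 45037 were tested. GEO's platform annotation gave 34945 probe sets 1 gene, 932 several and 9160 none, and only the first kind was named. Groups were compared with limma 3.58.1 in R 4.3.3 (lmFit and eBayes, 12 residual and 6.45 prior degrees of freedom), tested beforehand on simulated data, with Benjamini-Hochberg adjustment over all probe sets tested. Figures and counts were made in Python 3.11.15. Alternatives were Cyber-T (window 101, prior weight 10), a 75% limit on the change, an intensity trend, only the groups compared, median centring, a minimum mean of 5, other uses of several probe sets, a replicate block, a covariate for the 3' minus 5' signal and each array left out. All members are named in the text, and of each other list up to 4 genes with the smallest F-test p, apart from genes given beside a count. The members and lists were chosen with earlier results of these data known.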

Additional observations from a re-analysis of the deposited data

Results flagged for a closer look

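The mean of MP, LP and 0PP differed from the mean of 7EX and 21EX, by limma's test of the difference itself (adjusted p over all probe sets), for the following. Ppargc1a was 0.50 higher on the log2 scale in pregnancy at probe set 1434100_x_at (adjusted p = 0.0117) and 0.45 higher at 1434099_at (adjusted p = 0.0326). Among the other regulators, Sirt1 was 0.25 higher (adjusted p = 0.00877) and Creb1 0.24 higher (adjusted p = 0.0407). Of the fatty acid genes, Decr1 was 0.31 higher (adjusted p = 0.000542), Acot2 0.36 (adjusted p = 0.00361), Hadha 0.22 (adjusted p = 0.00933), Ech1 0.19 (adjusted p = 0.0108) and Acadvl 0.23 (adjusted p = 0.0151). Once the difference of 3' and 5' signal entered the fit, 0 of the 16 fatty acid genes and 0 of the 26 other regulators were called, by Cyber-T 12 and 4. With 1 array left out the counts were 4 to 7 and 1 to 3. The slope of the covariate rests largely on the NP/Sed arrays, so the calls lost with it do not decide the part of the signal difference. Among these fits the share of all genes called was counted only without NP/Sed-1 (4.49%). The call of Creb1 was lost in 11 of 16 such fits (without 0PP-1, 0PP-2, any 7EX array, 21EX-2, 21EX-3, MP-1, MP-2, LP-1 or LP-3) and that of Acadvl without 7EX-3 or 21EX-3. In the same contrast the fibroblast markers Lum and Tcf21 and the endothelial marker Cdh5 were called lower in pregnancy and the erythroid marker Alas2 and the adipocyte marker Adipoq higher, and their part was not tested. Groups of 3 arrays are too small for a test of single outlying arrays.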

How the results depend on the processing

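Over the gene-level alternatives, 5045 values kept their side of the threshold, 12 gained a call and 13 lost it. The sign changed in 391 of the 5070, all called in neither fit, and in 0 called values. The number of members called in LP was 0 with the 75% limit, with only the groups compared, with median centring and with the 3' minus 5' covariate. In 21EX it was 0 with only the groups compared and with the mean of a gene's probe sets. In 7EX it was 1 by Cyber-T, and in 0PP 1 with median centring and 1 with a mean of at least 5. In pregnancy against exercise it was 1 by Cyber-T, with only the groups compared, with the intensity trend, with a mean of at least 5, with any probe set of a gene, with their mean and with the covariate. With 1 array left out it was 0 to 1 in each of 21EX, LP, 0PP and pregnancy against exercise. In 21EX it was 0 without 21EX-2 or 21EX-3, in LP 0 without NP/Sed-2, NP/Sed-3, LP-1 or LP-3, and in 0PP and the last contrast 1 without NP/Sed-1, which for the last was chosen after seeing the data. Without NP/Sed-1 the share of all genes called in either direction was 2.03% in 21EX, 3.34% in LP, 4.37% in 0PP and 4.49% in the last contrast. With all arrays it was 2.67%, 2.36%, 2.70% and 4.08%. For the other fits this share was not counted, so a changed count there cannot be told from a change over all genes. The cause was not tested.

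The median of the members was 0.026 in 21EX, 0.060 in LP and 0.043 in 0PP with median centring, and 0.0021 in MP with the mean of the probe sets. With 1 array left out it ran from -0.018 to 0.018 in 0PP (the highest without 0PP-1) and from -0.037 to 0.0050 in 0PP against LP (the highest without 0PP-1).

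Replicate numbers did not pair the arrays: 7 of 45 pairs with the same number had a correlation over 0.1 (median -0.04), as did 21 of 90 with different numbers. With the replicate block 0 members were called in LP (Ppargc1b, adjusted p = 0.0552), and no other count of members changed. With 3 arrays a group, a subunit's 95% interval had a median half-width of 0.14.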
